A study of Mus musculus with 4 samples.

Results

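The 10 genes described here, Pi16, Ly6a, Ly6c1, Cd34, Cd248, Thy1, Smpd3, Limch1, Efhd1 and Dact2, are known markers of Pi16-positive adventitial fibroblasts, and they were taken by symbol from the 24421 gene symbols of the count table. All 10 were in the table and all 10 reached the level needed for testing. They were compared between DPPIV+ and DPPIV- FAPs, paired by mouse.

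Adventitial fibroblasts lie in the outer sheath of vessels and in the connective tissue around muscle and other organs. Across tissues, fibroblasts that express Pi16 and Dpp4 recur as a shared state, often called universal fibroblasts, and cells of this kind can give rise to more specialised fibroblasts. FAPs (fibro-adipogenic progenitors) are the resident fibroblasts of skeletal muscle, which maintain the matrix and can form adipocytes, and DPPIV is the surface peptidase encoded by Dpp4. The comparison describes by how much adventitial markers differed along DPPIV within FAPs, in cells that were sorted on DPPIV itself. In single-cell data of an earlier study, the paper had already listed Pi16 and Ly6a as differing between FAPs with high and low DPPIV.

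The series holds 4 bulk RNA sequencing libraries from 2 wild-type mice, with 1 DPPIV- and 1 DPPIV+ library from each mouse. Cells of both groups were PI- CD31- CD45- Sca1+ and differed in the sort by DPPIV alone, and both mice had been given a CSF1R inhibitor (PLX73086 in chow, per the study's methods) for 3 weeks and then a regular diet for 3 days, so that no library came from an untreated animal. Strain, age and sex are not in the labels, which name the tibialis anterior as the tissue, whereas the extraction protocol describes muscle of both hindlimbs. Reads counted on genes ranged from 18240110 to 20879405 per library, at which a gene with 3 counts stood at 0.144 to 0.164 CPM (counts per 1000000 counted reads, in the values below on library sizes scaled by TMM).

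Dpp4 itself, the gene behind the sort, was at 89.8 CPM in DPPIV- FAPs of mouse 1 and at 39.7 CPM in those of mouse 2, against 728 and 575 CPM in DPPIV+ FAPs. It was 10.7-fold higher in DPPIV+ FAPs (log2 fold change 3.41 ± 0.08, SE), and the labels therefore matched the transcript in both mice. The Dpp4 ratio differed between the mice (log2 3.02 in mouse 1 and 3.86 in mouse 2), and its call was lost with robust moderation (edgeR adjusted p = 0.178), which lets the spread of a gene depart from that of genes of like abundance. FAP marker genes were abundant throughout, with Pdgfra between 1159 and 1657 CPM and Col3a1 between 31446 and 35489 CPM. Of 7 such markers edgeR called 1 higher and 5 lower in DPPIV+ FAPs, beside 15.9% and 17.2% of all genes tested.

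Sequences bear on the values of the LY6 genes, because near-identical copies can take or lose reads. Ly6c1 and Ly6a lie on the minus strand of chromosome 15 in the LY6 cluster, and Ly6c2 is the closest copy of Ly6c1. The first 300 of the coding bases of each gene are shown 5′ to 3′ (GENCODE M21 on GRCm38, the transcript numbered 201 of each gene), with capitals at the bases of Ly6c2 and Ly6a that differ from Ly6c1 or are inserted relative to it in a global alignment.
Ly6c1: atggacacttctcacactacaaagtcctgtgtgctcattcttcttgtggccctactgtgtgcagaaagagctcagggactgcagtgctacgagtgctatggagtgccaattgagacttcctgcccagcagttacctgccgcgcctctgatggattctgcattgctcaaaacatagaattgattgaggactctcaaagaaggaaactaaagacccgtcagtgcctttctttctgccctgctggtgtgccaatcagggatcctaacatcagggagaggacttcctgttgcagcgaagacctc
Ly6c2: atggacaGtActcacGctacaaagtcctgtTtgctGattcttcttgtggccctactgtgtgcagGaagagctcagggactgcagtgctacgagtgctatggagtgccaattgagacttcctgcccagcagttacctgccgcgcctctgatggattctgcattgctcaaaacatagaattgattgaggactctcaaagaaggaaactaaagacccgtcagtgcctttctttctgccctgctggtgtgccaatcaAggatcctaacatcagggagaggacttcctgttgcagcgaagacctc
Ly6a: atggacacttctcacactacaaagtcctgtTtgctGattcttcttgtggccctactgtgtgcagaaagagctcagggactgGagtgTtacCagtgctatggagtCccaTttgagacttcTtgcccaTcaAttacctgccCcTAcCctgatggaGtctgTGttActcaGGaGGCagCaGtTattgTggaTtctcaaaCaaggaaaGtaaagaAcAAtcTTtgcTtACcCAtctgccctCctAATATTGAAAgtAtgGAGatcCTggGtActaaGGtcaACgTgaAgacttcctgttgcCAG
Over the whole coding sequence of 396 bases, Ly6c2 was 97.7% identical to Ly6c1, with 9 substitutions and a longest identical run of 188 bases. Ly6a, with 405 coding bases, was 82.0% identical to Ly6c1 and had a longest identical run of 48 bases. Among all 50-base words in the transcripts of Ly6c1, 32.8% occurred in another gene as well, 21.5% in Ly6c2 and 11.1% in Ly6a. For Ly6a the share was 19.0%, and for the other 8 markers it was under 1%.

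RefSeq promoters of GRCm38.p6 were found for 6 of the 10 genes (Pi16, Ly6c1, Cd34, Limch1, Efhd1 and Dact2), and sequence is shown for Efhd1 and Ly6c1, whose window before the RefSeq start lies wholly before the gene as GENCODE M21 annotates it. The 250 bases before the start were searched on both strands for TATAAA as the TATA box, for GGGCGG as the GC box, for TGANTCA as the site of AP-1, for GGAATG as the site of TEAD factors, for CCACCC as the box of that name, and for the letters of the CCAAT box, and matches are in capitals. The windows lie at chr1:87264103-87264352 on the plus strand for Efhd1 and at chr15:75048838-75049087 on the minus strand for the first of the 2 Ly6c1 promoters.
Efhd1: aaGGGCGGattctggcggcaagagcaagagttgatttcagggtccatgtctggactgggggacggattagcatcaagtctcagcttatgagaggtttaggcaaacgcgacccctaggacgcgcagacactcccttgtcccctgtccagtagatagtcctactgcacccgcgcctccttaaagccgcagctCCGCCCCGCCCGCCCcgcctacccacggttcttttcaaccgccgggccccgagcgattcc
Ly6c1: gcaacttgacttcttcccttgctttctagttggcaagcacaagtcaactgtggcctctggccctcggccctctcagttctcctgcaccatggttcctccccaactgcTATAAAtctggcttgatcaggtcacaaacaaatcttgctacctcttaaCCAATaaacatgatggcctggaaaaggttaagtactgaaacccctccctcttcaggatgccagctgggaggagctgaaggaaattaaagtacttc
Efhd1 held 4 GC boxes, of which those that began 60, 55 and 51 bases before the start overlapped. Ly6c1 held a TATA box that began 143 bases before this start, and a CCAAT box 95 bases before it. The RefSeq starts of Pi16 and Dact2 lie 1202 and 473 bases inside the genes in the GENCODE annotation, so their windows are within the annotated genes and are not shown. Of the 6 genes, 3 held a GC box and 3 a CCAAT box in at least 1 of their RefSeq windows. Of all 32851 windows of this length, 32.7% and 33.8% held one. The first are counts of genes and the second shares of windows, and Limch1 and Ly6c1 had several windows each. The 2 measures are therefore unlike, and no excess can be read from them. No AP-1 or TEAD match was found in any window of the 6 genes, where 6.75% and 12.6% of all windows held one. The letters are described only.

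All 10 markers were higher in DPPIV+ FAPs, beside 15.9% of the 11588 genes tested that were called higher (edgeR quasi-likelihood test with mouse as a block, Benjamini-Hochberg adjusted p under 0.05, two-sided). Their median log2 fold change was 1.70, from 0.52 for Cd34 to 3.18 for Dact2, while the median over all genes tested was -0.00. For each of the 10, both DPPIV+ libraries lay above both DPPIV- libraries, which 27.8% of all genes tested did in this direction. By DESeq2 all 10 were also called, beside 7.97% of genes, and without the mouse block all 10, beside 8.64%, while a test against a change of at least 1.5-fold called 8, beside 3.76%. The differences fell into a range of at least 2 on the log2 scale for 5 genes (Dact2, Pi16, Smpd3, Efhd1, Limch1), of 1 to 2 for 3 genes (Thy1, Ly6c1, Cd248), and under 1 for 2 genes (Ly6a, Cd34). With bulk RNA, a smaller share of cells that express a gene and less RNA per cell cannot be told apart. The spread of each gene was taken wholly from genes of like abundance, so that a gene whose ratio differed between the mice did not get a larger standard error. An exact two-sided permutation test that keeps the 2 pairs could not go below p = 0.5 for a single gene. The 10 markers were chosen with earlier results of these data known, so their shared direction is a description and not independent evidence.

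**Figure D1:**
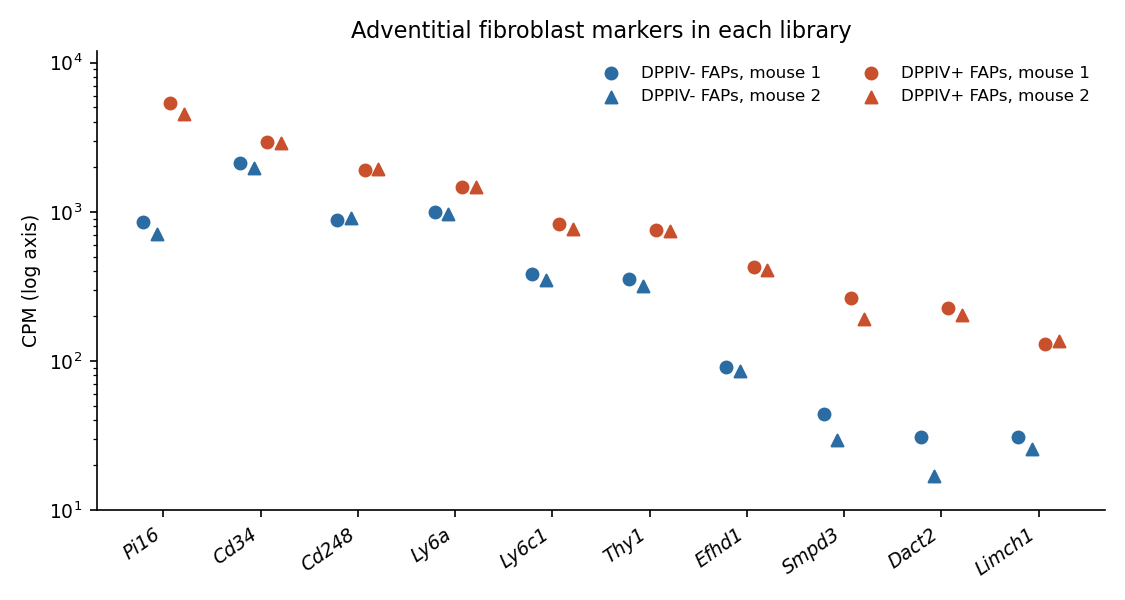
Level of each of the 10 markers in the 4 libraries, in CPM on a log axis, with DPPIV- FAPs in blue, DPPIV+ FAPs in red, circles for mouse 1 and triangles for mouse 2. For every gene both red points lie above both blue points, with the widest gap for Dact2 and the narrowest for Cd34.

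Pi16 encodes peptidase inhibitor 16, a secreted or membrane-bound protein of the CAP superfamily, and is the gene by which these fibroblasts are usually named. It lies on the plus strand of chromosome 17 at 29317680 to 29330593 (GRCm38, as for the positions that follow). Pi16 was at 854 CPM in DPPIV- FAPs of mouse 1 and at 709 CPM in those of mouse 2, and at 5323 and 4533 CPM in DPPIV+ FAPs. The groups were far apart, and DPPIV- FAPs kept 16.0% of the DPPIV+ level in mouse 1 and 15.6% in mouse 2. The fold was 6.31 (log2 2.66 ± 0.08, SE; edgeR adjusted p = 7.50e-226). Its log2 fold change ranked 58th among the genes tested. Of the summed CPM of the 10 markers, Pi16 made up 14.8% and 13.3% in DPPIV- FAPs and 37.3% and 34.2% in DPPIV+ FAPs. The residual share of Pi16 in DPPIV- FAPs was above that of Dpp4, which was 12.3% in mouse 1 and 6.90% in mouse 2.

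Among the surface proteins held by a lipid anchor, Thy1 (CD90), a small immunoglobulin-like protein of fibroblasts, stem cells and neurons, was at 352 and 320 CPM in DPPIV- FAPs and at 755 and 748 CPM in DPPIV+ FAPs. Its DPPIV+ libraries agreed closely (751 ± 4.99 CPM, SD, n = 2). Thy1 (chromosome 9, 44043384 to 44048579) was 2.24-fold higher in DPPIV+ FAPs (log2 1.16 ± 0.07, SE; edgeR adjusted p = 5.68e-60).

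Ly6c1 encodes LY6C1, a surface protein also carried by monocytes and endothelium as part of the Ly6C antigen, and lies on chromosome 15 at 75044018 to 75048830. It stood at 382 and 347 CPM in DPPIV- FAPs and at 832 and 761 CPM in DPPIV+ FAPs, 2.19-fold higher (log2 1.13 ± 0.07, SE; edgeR adjusted p = 2.37e-56). The ratio was nearly the same in both mice, with log2 values of 1.12 and 1.13. Ly6c2, the copy whose sequence is shown above, had 3 and 5 reads in DPPIV- FAPs and 5 and 2 in DPPIV+ FAPs, against 6785 to 14984 reads on Ly6c1. Reads from the stretches that the copies share cannot be assigned by sequence alone, and how the counter treated them is not given in the sources used here.

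Ly6a encodes Sca1, the stem cell antigen by which both groups were gated, so its presence in every library follows from the sort, although its level was free to differ. It lies on chromosome 15 at 74994877 to 74998031. Ly6a was at 999 and 962 CPM in DPPIV- FAPs and at 1471 and 1456 CPM in DPPIV+ FAPs. The 1.49-fold difference (log2 0.58 ± 0.07, SE; edgeR adjusted p = 9.78e-15) was among the smallest of the 10, and a test against a change of at least 1.5-fold did not call it (edgeR glmTreat adjusted p = 1). Of the 50-base words of Ly6a, 15.0% also occurred in Ly6c1, which had 6785 to 14984 reads per library and was itself higher in DPPIV+ FAPs. The part of such shared reads in the difference of Ly6a was not tested. Ly6i, whose transcripts share 2.39% of these words, had 3 to 12 reads per library.

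Not every gene of the LY6 cluster was higher in DPPIV+ FAPs. Ly6e, whose start lies at -43.0 kb from that of Ly6a, had 742 and 683 CPM in DPPIV- FAPs and 671 and 639 CPM in DPPIV+ FAPs (log2 -0.12 ± 0.07, SE; edgeR adjusted p = 0.190), and was named after its values were seen. Ly6d and Ly6f had 0 reads in all 4 libraries, which allows up to 0.164 CPM in the shallowest of them by counting error alone.

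**Figure D2:**
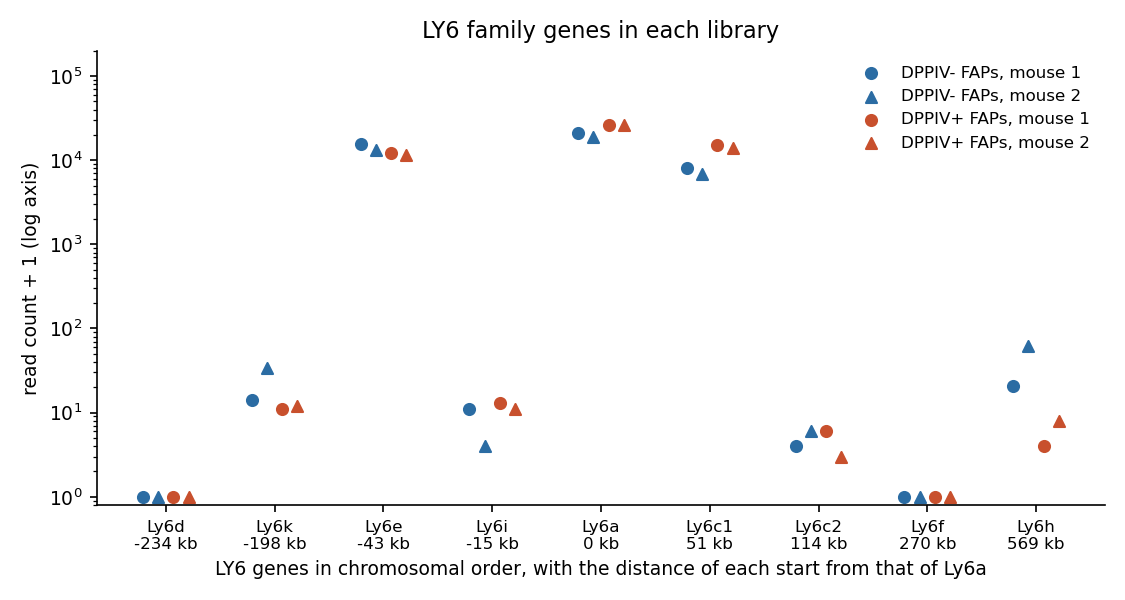
Read counts plus 1, on a log axis, of 9 LY6 genes in each library, in chromosomal order with the distance of each start from that of Ly6a in kb. Ly6a, Ly6c1 and Ly6e hold at least 6785 reads in each library, whereas Ly6c2 and Ly6i stay at 12 reads or fewer, and only Ly6a and Ly6c1 were called higher in DPPIV+ FAPs among the 3 genes of the cluster that were tested.

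Cd34 encodes a sialomucin of progenitor cells and endothelium, on chromosome 1 at 194938819 to 194961279. It was at 2120 and 1952 CPM in DPPIV- FAPs and at 2952 and 2883 CPM in DPPIV+ FAPs. The groups did not overlap, but Cd34 had the smallest difference of the 10, 1.43-fold (log2 0.52 ± 0.07, SE; edgeR adjusted p = 4.18e-11), and it too was not called against a change of at least 1.5-fold (edgeR glmTreat adjusted p = 1). Its share of the summed CPM of the 10 markers was 36.7% and 36.5% in DPPIV- FAPs and 20.7% and 21.8% in DPPIV+ FAPs.

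Cd248 encodes endosialin, a transmembrane C-type lectin-like receptor of fibroblasts and pericytes, in a single exon on chromosome 19 at 5068078 to 5070682. It was at 876 and 903 CPM in DPPIV- FAPs and at 1912 and 1936 CPM in DPPIV+ FAPs, and replicates differed little in either group. The difference was 2.16-fold (log2 1.11 ± 0.07, SE; edgeR adjusted p = 1.42e-50), and Cd248 was the only one of the 10 whose ratio was smaller in mouse 2 (log2 1.10) than in mouse 1 (log2 1.13).

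The 4 markers that act inside the cell had log2 fold changes of 2.23 to 3.18 and low levels per kb of exon in DPPIV- FAPs, at 2.50 to 43.1 CPM per kb, where the secreted and surface markers were at 107 to 829. Differences of that size were not confined to them, since Pi16 had a log2 fold change of 2.66. The other 5 markers were at 0.52 to 1.16. Dact2, a Dishevelled-binding protein that modulates Wnt and TGF-beta family signalling (chromosome 17, 14195052 to 14204304), was at 30.9 and 17.0 CPM in DPPIV- FAPs and at 226 and 202 CPM in DPPIV+ FAPs. Its 9.09-fold difference was the largest of the 10 (log2 3.18 ± 0.07, SE), with an adjusted p too small for edgeR to store and an adjusted p of 2.08e-19 in DESeq2. The ratio was log2 2.87 in mouse 1 and 3.57 in mouse 2, a spread that this standard error does not reflect. With robust moderation the adjusted p of Dact2 was 4.61e-08 (edgeR), the largest of the 10 in that fit. DPPIV- FAPs kept 13.7% of the DPPIV+ level of Dact2 in mouse 1 and 8.43% in mouse 2, shares close to those of Dpp4.

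Smpd3 encodes neutral sphingomyelinase 2, which releases ceramide from sphingomyelin, and lies on chromosome 8 at 106252548 to 106337988. It was at 44.2 and 29.6 CPM in DPPIV- FAPs and at 262 and 190 CPM in DPPIV+ FAPs. Mouse 2 was lower in both groups, while the ratio was alike, 6.17-fold over both mice (log2 2.62 ± 0.07, SE; edgeR adjusted p = 3.75e-272). Exons of Smpd3 share 247 bases with Prmt7 on the opposite strand, which had 338 to 402 reads per library with no order between the groups, and whether strand was used in counting is not given in the sources used here.

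Efhd1, a calcium-binding EF-hand protein linked to mitochondria (chromosome 1, 87264363 to 87310839), was at 91.5 and 85.8 CPM in DPPIV- FAPs and at 428 and 409 CPM in DPPIV+ FAPs, 4.72-fold higher (log2 2.24 ± 0.07, SE; edgeR adjusted p = 8.99e-207). Limch1, an actin-associated activator of non-muscle myosin with LIM and calponin homology domains (chromosome 5, 66745827 to 67057158), was at 30.9 and 25.7 CPM in DPPIV- FAPs and at 129 and 136 CPM in DPPIV+ FAPs, 4.68-fold higher (log2 2.23 ± 0.07, SE; edgeR adjusted p = 1.24e-205). Both genes kept a clear gap between groups. Pi16, Cd34, Efhd1 and Dact2 share 73 to 254 exon bases with antisense genes. Of these, Gm16897, antisense to Cd34, was in the table and had at most 2 reads per library.

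**Figure D3:**
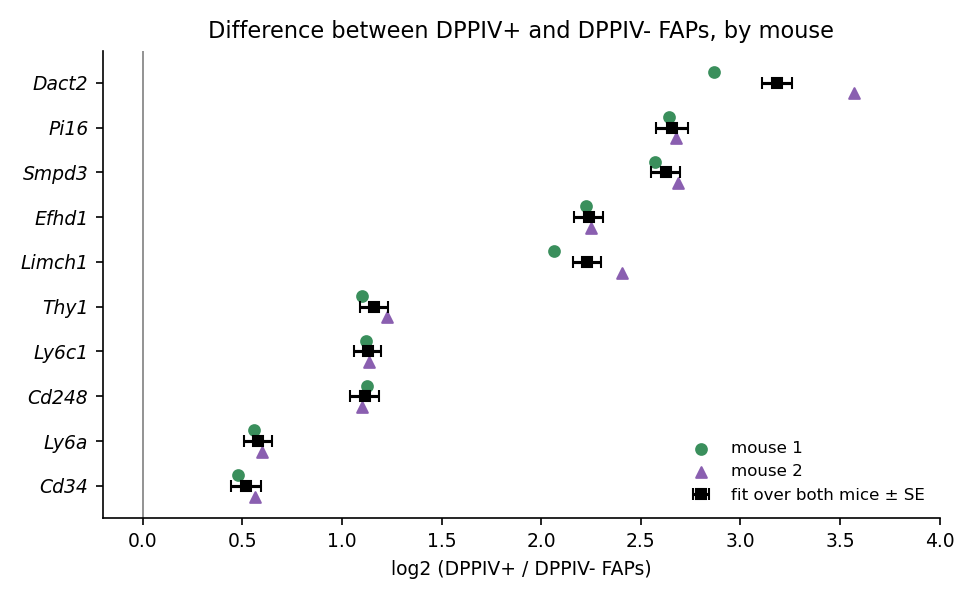
Log2 ratio of DPPIV+ to DPPIV- FAPs for each marker, with circles for mouse 1, triangles for mouse 2 and squares for the fit over both mice with its standard error as bars. The mice lie close together for 8 genes and apart for Dact2 (2.87 and 3.57) and Limch1 (2.06 and 2.40), and no point lies below 0.

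The ratio was larger in mouse 2 than in mouse 1 for 9 of the 10 markers. For 8 genes the mice differed by -0.03 to 0.13 on the log2 scale, and the other two were Limch1 (0.34) and Dact2 (0.70). Dpp4, on which the cells were sorted, had a difference of 0.84 in the same direction. With 1 pair of libraries per mouse these differences were not tested, and the purity of the sort in each mouse cannot be told apart from the ratio.

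Between the mice, irrespective of DPPIV, Smpd3, Dact2 and Pi16 were lower in mouse 2. Their log2 differences (mouse 2 against mouse 1) were -0.51 for Smpd3, -0.41 for Dact2 and -0.25 for Pi16 (edgeR adjusted p = 5.12e-11, 8.71e-07 and 0.0159), and Dpp4 moved the same way by -0.71 (edgeR adjusted p = 2.63e-20). The other 7 of the 10 markers were not called between the mice. Of all 11588 genes tested, 518 were called higher and 523 lower in mouse 2. The summed CPM of all 10 markers was 5780 and 5351 in DPPIV- FAPs and 14290 and 13254 in DPPIV+ FAPs. As a share of all counts this was 0.579% and 0.545% in DPPIV- FAPs, against 1.41% and 1.30% in DPPIV+ FAPs.

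Per kb of exon, which allows levels to be set side by side between genes, Ly6a had the highest level in both groups, at 799 to 829 CPM per kb in DPPIV- FAPs and 1208 to 1221 in DPPIV+ FAPs. In DPPIV- FAPs the order continued with Cd248, Cd34, Ly6c1, Pi16, Thy1, Efhd1, Dact2, Smpd3 and Limch1, in which the ranges of Pi16 (111 to 134 CPM per kb) and Thy1 (107 to 118), and of Dact2 and Smpd3, overlapped. In DPPIV+ FAPs Pi16 stood second at 712 to 836 CPM per kb, with a range that overlapped that of Cd248 (734 to 743), and was followed by Ly6c1, Cd34, Thy1, Efhd1, Dact2, Smpd3 and Limch1. All other neighbours had separate ranges over the 2 mice. Limch1 was lowest in both groups, at 2.50 to 3.01 CPM per kb in DPPIV- FAPs and 12.6 to 13.2 in DPPIV+ FAPs.

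**Figure D4:**
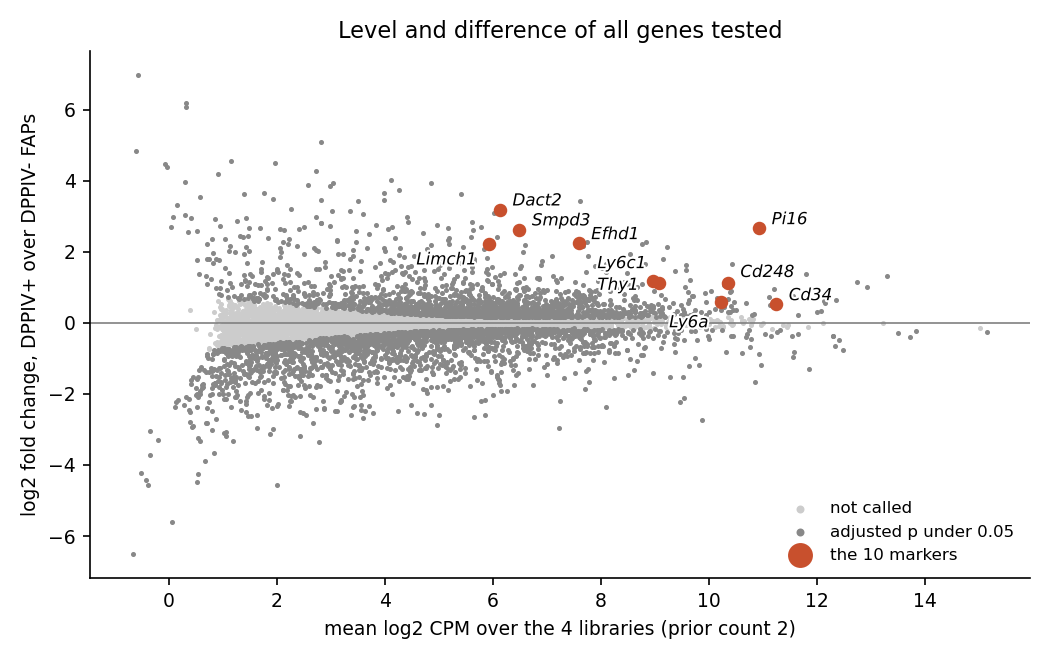
Log2 fold change of DPPIV+ over DPPIV- FAPs against mean log2 CPM over the 4 libraries for the 11588 genes tested, with called genes in dark grey, other genes in light grey and the 10 markers in red. All 10 lie above 0, with Cd34 (0.52) and Ly6a (0.58) nearest to it and Pi16 at 2.66.

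The pattern of Pi16 over the 4 libraries was compared with that of every other gene tested by Euclidean distance on log2 CPM centred per gene, as a description over 4 libraries that share 2 mice. With the other markers set aside, the 5 nearest of 11578 genes were Gap43, a growth-associated protein of axons (distance 0.12), Shroom3, an actin-binding regulator of cell shape (0.14), Edn1, the vasoconstrictor peptide endothelin (0.15), Pkp2, a desmosomal plaque protein (0.16), and Il18, a cytokine of the interleukin-1 family (0.18). None of the 5 passed 37.8 CPM in a library, the level of Edn1 in DPPIV+ FAPs of mouse 1. Pkp2 had only 9 and 8 reads in DPPIV- FAPs, and its log2 ratios were 3.01 and 2.89 in single mice. At such counts the prior count of 2 used for the distances shrinks the ratio, so its place among the nearest genes depends on that setting. Among the markers, Smpd3 was nearest to Pi16 at a distance of 0.27, followed by Efhd1 (0.46), Limch1 (0.48) and Dact2 (0.69). The surface markers Thy1, Ly6c1, Cd248, Ly6a and Cd34 lay between 1.51 and 2.15 from it.

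A further list of 24 adventitial markers was called higher in DPPIV+ FAPs at all 24 genes, beside 15.9% of all genes tested in edgeR. By DESeq2 all 24 were also called, beside 7.97%. The median log2 fold change of the list was 1.51, with a range of 0.51 to 2.39. The largest differences were those of Uchl1, a deubiquitinating enzyme, Anxa3, a calcium-dependent phospholipid-binding annexin, Procr, the endothelial protein C receptor, and Sema3c, a secreted semaphorin. Uchl1 was at 8.74 and 7.26 CPM in DPPIV- FAPs and at 46.8 and 36.9 CPM in DPPIV+ FAPs (log2 2.39 ± 0.11, SE; edgeR adjusted p = 2.48e-104). Anxa3 went from 110 and 86.3 CPM to 525 and 427 CPM (log2 2.28 ± 0.07, SE; edgeR adjusted p = 5.88e-213). For Procr and Sema3c the log2 fold changes were 2.15 ± 0.07 and 2.14 ± 0.07 (SE), with ratios in single mice from 2.04 to 2.26. Has1, which makes hyaluronan, differed most between the mice (log2 2.12 for mouse 1, 0.96 for mouse 2), and its call was lost with robust moderation (edgeR adjusted p = 0.411). It was named after its values were seen.

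A list of markers of interstitial muscle fibroblasts moved the other way. All 15 that were tested were lower in DPPIV+ FAPs, beside 17.2% of all genes tested, and in DESeq2 all 15 were called as well, beside 8.59%. Their median log2 fold change was -1.09. Lum, named after its values were seen, was on this list and also among the FAP markers counted above. Gdf10, a ligand of the BMP family, was at 437 and 398 CPM in DPPIV- FAPs and at 47.3 and 61.3 CPM in DPPIV+ FAPs (log2 -2.95 ± 0.07, SE). Cxcl14, a chemokine, was at 2645 and 2197 CPM against 368 and 355 CPM (log2 -2.74 ± 0.08, SE; edgeR adjusted p = 5.41e-259). Col15a1, a collagen of the basement membrane zone, and Crispld2, a secreted protein of the CAP superfamily, had log2 fold changes of -1.67 ± 0.08 and -1.53 ± 0.07 (SE). In all 15 both DPPIV+ libraries lay below both DPPIV- libraries, which 28.6% of all genes tested did. Members and lists were chosen with these differences already known in part, so the counts describe the lists and are not independent evidence of their direction.

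**Figure D5:**
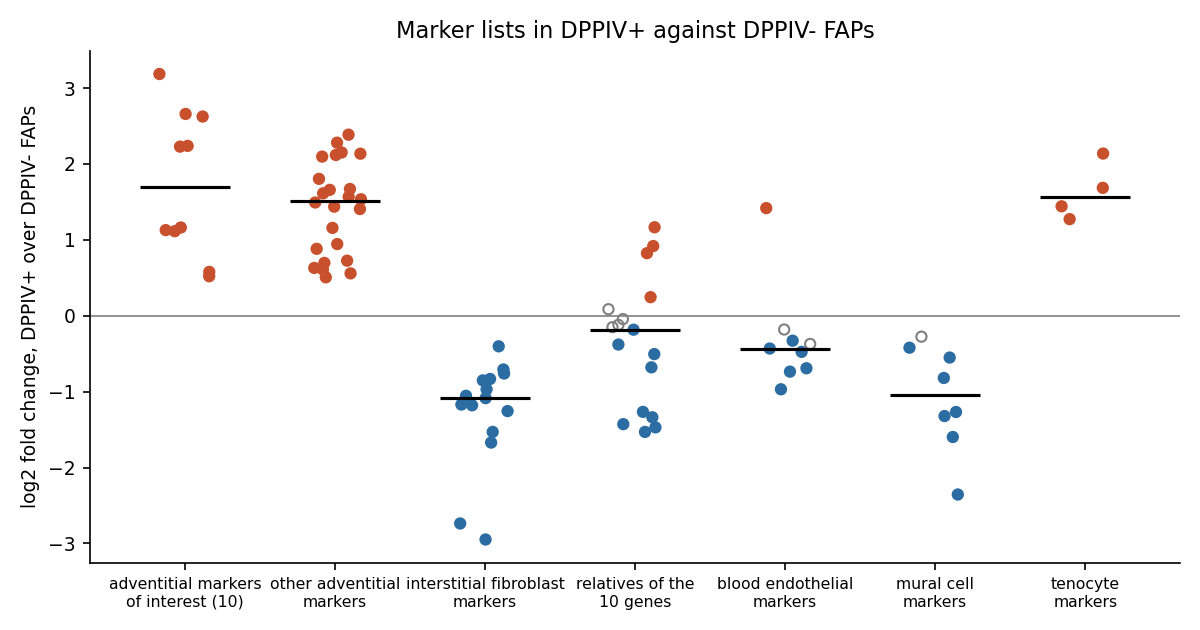
Log2 fold change of DPPIV+ over DPPIV- FAPs for the tested genes of 7 marker lists, with filled points for called genes (red higher, blue lower), open points for genes not called and a bar at each median. The adventitial lists lie wholly above 0 and the interstitial list wholly below it, whereas relatives of the 10 genes fall on both sides.

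Relatives of the 10 genes in sequence or family did not share their direction. Of 27 relatives, 25 were in the table and 17 were tested. In DPPIV+ FAPs 4 were higher and 9 lower, beside 15.9% and 17.2% of all genes tested, with a median log2 fold change of -0.18. Under DESeq2, and likewise without the mouse block, 8 of these 13 were called. Crispld2, among the 9 lower, was also counted on the interstitial list. Podxl and Gpihbp1, both called lower in edgeR and named after their values were seen, had groups that overlapped. The ratio of Podxl changed sign between the mice (log2 -0.83 in mouse 1 and 0.12 in mouse 2). The higher ones were Thbd, Dact1, Efhd2 and Glipr2. Thbd, the thrombin receptor thrombomodulin and a lectin-like relative of Cd248, was at 354 and 376 CPM in DPPIV- FAPs and at 815 and 823 CPM in DPPIV+ FAPs (log2 1.17 ± 0.07, SE; edgeR adjusted p = 7.01e-60). Clec14a, another such relative and a gene of endothelium, was lower instead, at 25.5 and 18.8 CPM against 9.33 and 6.64 CPM (log2 -1.47 ± 0.13, SE).

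Within the DACT family, Dact1 went with Dact2, at 158 and 162 CPM in DPPIV- FAPs and 312 and 292 CPM in DPPIV+ FAPs (log2 0.92 ± 0.07, SE; edgeR adjusted p = 4.94e-40). Dact3 went against it, at 45.2 and 51.7 CPM against 17.1 and 18.9 CPM (log2 -1.43 ± 0.09, SE; edgeR adjusted p = 8.83e-56). Efhd2, the closest relative of Efhd1, was higher by a log2 fold change of 0.82 ± 0.07 (SE; edgeR adjusted p = 5.35e-31).

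Among CAP superfamily relatives of Pi16, Crispld1 was lower (log2 -1.34 ± 0.09, SE; edgeR adjusted p = 1.40e-43), as was Crispld2, while Glipr2 was higher by a log2 fold change of 0.25 ± 0.07 (SE; edgeR adjusted p = 9.45e-04) that DESeq2 did not call (adjusted p = 0.122). The 4 relatives that were tested and not called were Ly6e, Podxl2, Smpd2 and Smpd4, named after their values were seen. Smpd1, the lysosomal sphingomyelinase, was slightly lower (log2 -0.18 ± 0.07, SE; edgeR adjusted p = 0.0256), and it was not called in DESeq2.

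Markers of other cells that the gate could hold were mostly low. Of 10 blood endothelial markers 9 were tested, with 1 higher and 6 lower in edgeR, beside 15.9% and 17.2% of all genes tested. Only the higher marker was called in DESeq2. The summed level of these endothelial markers ranged from 202 to 286 CPM in DPPIV- FAPs and from 476 to 522 CPM in DPPIV+ FAPs. Most of it was Tek, the receptor TIE2, at 187 and 149 CPM in DPPIV- FAPs against 467 and 427 CPM in DPPIV+ FAPs. Pecam1, which encodes the CD31 of the gate, was at 20.4 and 11.2 CPM in DPPIV- FAPs and at 11.7 and 11.2 CPM in DPPIV+ FAPs. Genes such as Cd34, Ly6c1 and Ly6a are also expressed by endothelium, and the part of endothelial cells in the differences of the 10 markers was not tested.

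Of all genes tested, 17.2% were called lower in DPPIV+ FAPs in edgeR and 8.59% in DESeq2. Blood cell markers were called lower in 3 of 6 tested (0 in DESeq2), with sums of 185 to 309 CPM in DPPIV- FAPs and 177 to 194 CPM in DPPIV+ FAPs. Mural cell markers were lower in 7 of 8 tested (4 in DESeq2), with sums of 171 to 174 CPM against 67.8 to 86.6 CPM, led by Abcc9 (log2 -2.35 ± 0.13, SE). Lymphatic markers summed to 3.73 to 7.00 CPM with none called of 2 tested in edgeR or DESeq2, and Ccl21a was at 0 in all libraries. Glial and perineurial markers summed to 26.5 to 36.6 CPM, with 2 of 5 tested lower. Satellite cell and mesothelial markers stayed below the level needed for testing, at sums of at most 1.62 and 1.78 CPM.

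Tenocyte markers were called higher in DPPIV+ FAPs in 4 of 4, beside 15.9% of all genes tested in edgeR. Without the mouse block 3 of the 4 were called, beside 8.64%. The 4 summed to 41.2 and 54.8 CPM in DPPIV- FAPs and to 95.4 and 173 CPM in DPPIV+ FAPs. In DPPIV- FAPs, Scx had 18 and 34 reads and Mkx 29 and 52. Tnmd, the tendon membrane protein tenomodulin, was at 26.8 and 30.9 CPM in DPPIV- FAPs and at 53.0 and 89.5 CPM in DPPIV+ FAPs (log2 1.27 ± 0.08, SE; edgeR adjusted p = 3.42e-61). The part of tenocytes, blood cells and mural cells in the differences of the 10 markers was not tested.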

How the data were processed

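Bulk RNA was sequenced from DPPIV- and DPPIV+ FAPs of 2 mice. The authors demultiplexed paired-end reads with bcl2fastq (2.20 in the submitters' processing notes), aligned them to mm10 with STAR, counted them on genes with RnaReadCounter and deposited raw counts per gene symbol, without a filter or normalization. The annotation release is not given in the sources used here.

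From these counts, genes that reached 2 CPM in 2 or more libraries were scaled by TMM and fitted with edgeR 4.0.16 in R 4.3.3 (quasi-likelihood F test, mouse and cell type in the model, two-sided, Benjamini-Hochberg adjustment over all genes that passed, threshold 0.05). The study's own model also held the animal, and the sample labels give each animal number to 1 library of each cell type. The differences between the mice had a correlation of 0.434 between DPPIV- and DPPIV+ FAPs across 11588 genes, which are not independent replicates. A standard error is the log2 fold change over the square root of F. Ratios per mouse used a prior count of 0.125, and distances used log2 CPM with a prior count of 2. CPM per kb divides by the union of exons in GENCODE M21. Libraries of a group came from separate mice. edgeR estimated an infinite prior df, and the p-values therefore use the spread of the trend over genes and give no weight to a gene's own spread between the mice.

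The 10 markers and the other lists were chosen with earlier results of these data known. The genes named are the 10 markers, Dpp4, up to 4 higher and 4 lower genes per fibroblast list and list of relatives with the largest log2 fold changes and the same sign in both mice, Ly6c2 and Ly6i, the 5 genes nearest to Pi16, and genes said to be named after their values were seen; markers of other cell types were also picked in that way.

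Counts were simulated from the real means, with dispersions that varied between genes. Among 11514 genes, edgeR recovered 192 of the 199 genes given a change and made 31 false calls, while DESeq2 1.42.0 recovered 155 and made 1. Far fewer genes were changed than were called in the data, and no gene was given a ratio that differed between the mice. The simulated false calls therefore do not measure those among the real calls.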

Additional observations from a re-analysis of the deposited data

How the results depend on the processing

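All 10 markers stayed higher in DPPIV+ FAPs without the mouse block (the pairing of libraries by animal), in DESeq2, in edgeR's likelihood ratio test, with RLE or upper-quartile scaling, with no filter or a stricter one, with robust moderation and at an adjusted p under 0.01; the largest adjusted p among them was 0.00673 without the block and 7.96e-09 in DESeq2. Against a 1.5-fold change, 8 of the 10 were called, and Ly6a (log2 fold change 0.58) and Cd34 (0.52) were not. The 120 values of single markers under the alternatives were all above 0. Those of the likelihood ratio test, robust moderation, the 1.5-fold test and the stricter threshold repeat the main estimate, so their sign could not change. The median log2 fold change of the 10 ranged from 1.59 to 1.74 when a mouse was left out, which leaves 1 library per group and no test.

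The number of all genes called was less stable. Of 1837 genes higher in DPPIV+ FAPs, the count fell to 1001 without the replicate block, 923 in DESeq2 and 436 against a 1.5-fold change. For lower genes it fell from 1989 to 1119, 995 and 656 in the same order. Under every alternative with a test, no gene of the longer adventitial list was called lower and none of the interstitial list higher; of the former 23 of 24 were called with robust moderation and 18 against a 1.5-fold change, and of the latter 13 of 15 against that change. With 2 mice, every call rests on spread borrowed from other genes, whatever the size of the difference; with robust moderation the adjusted p of Dpp4 was 0.178 and that of Has1 0.411. Depth was not the limit for any of the 10 markers, the lowest of which had 333 reads in a library.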
